A study of Homo sapiens with 8 samples.

Results

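The sgRNAs described here are 120 guides against 12 genes of the PRDM family among the 7855 guides of EPIKOL, a pooled lentiviral knockout library for chromatin regulators, and they were chosen by the gene symbol alone. Each gene was targeted by 10 guides, and the genes were PRDM1, PRDM2, PRDM4, PRDM6, PRDM7, PRDM8, PRDM9, PRDM11, PRDM12, PRDM13, PRDM14 and PRDM16. The other guides were directed at further genes, giving 779 genes in all, or were 80 non-targeting controls. The host was T1-160, a Cas9-expressing derivative of the triple-negative breast cancer line SUM159PT that had been made Taxol-resistant by dose escalation. Cells of every group had received the library and had been selected with puromycin together with verapamil, an efflux pump inhibitor. The AP group (after puromycin) was collected at the end of that selection without drug and is represented by 2 libraries, replicates 1 and 3. The DMSO group (3 libraries) was grown in vehicle and the Taxol group (3 libraries) in 160 nM Taxol, both for 16 population doublings. Each deposited cell joins the values of a group, and their order was taken as the replicate number, an assumption that decides which AP values were used. The labels do not state if the replicates were infected or cultured separately. The p-values of the linear model (limma) then measure only the spread between these samples, which may be technical. Those of the rank test for genes set the ranks of a gene's guides against independent uniform draws. They do not measure the variation between cultures. The 10 guides of a gene share their target and are not replicates of a condition. Editing at the target sites and expression of the PRDM genes in T1-160 cells were not analysed here.

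PRDM proteins carry a PR domain, a relative of the SET domain found in lysine methyltransferases, usually followed by zinc fingers that bind DNA. Some members methylate histone H3 themselves, whereas others act by recruiting histone deacetylases, polycomb proteins or the arginine methyltransferase PRMT5. The family is known for switching cell fates, in germ cells, neurons, plasma cells and brown fat, and several members are silenced or deleted in tumors. A guide that falls in abundance during culture can mark cells that were outgrown by the rest of the pool, and a guide that rises can mark cells that outgrew it. As deposited, the non-targeting guides rose too, with a median log2 fold change of 0.43 in DMSO vs AP and 0.68 in Taxol vs AP. A rise alone therefore does not show a growth gain from a knockout.

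All 120 PRDM guides were detected in all 8 libraries. Reads were recovered from the normalized counts, as each library's values were whole multiples of a fixed step, and totaled 2045986 (Taxol 2) to 11771414 (Taxol 1) per library. The PRDM guides made up 1.53% of the guides. They took 1.63% of the reads in AP 1 (95% Wilson interval 1.62 to 1.64) and 1.72% in AP 3 (1.71 to 1.73). In DMSO 1 to 3 their shares were 1.92%, 1.68% and 1.68%, and the last 2 lay between the AP libraries. In Taxol 1 to 3 they were 1.30%, 2.11% and 1.33%, so that the Taxol libraries lay on both sides of the other groups. These intervals cover counting error only, since no molecular identifiers are described for the amplicons, and the spread between libraries was far wider.

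Single guides weighed on these shares, most of all in the Taxol libraries. Guide 4734 against PRDM4 reached 23565 normalized counts in Taxol 2, or 48.2 times the median PRDM guide and 24.1% of all PRDM counts there, and without it the PRDM share of Taxol 2 was 1.61%. In the other Taxol libraries this guide had 5453 (Taxol 1) and 1142 (Taxol 3) normalized counts, and in DMSO 1 to 3 it had 3164, 2957 and 1554. In Taxol 1 the highest PRDM guide was 4769 against PRDM7, with 7589 normalized counts against 443 and 673 in Taxol 2 and 3. In Taxol 3 it was 4718 against PRDM16, with 4895. The highest guide of DMSO 3, 4704 against PRDM14, stood at 3004 in the same table. In AP no PRDM guide exceeded 5 times the median PRDM guide, whereas 10, 3 and 4 guides did in Taxol 1 to 3 and 1, 5 and 1 did in DMSO 1 to 3. The matching share over all guides is not given here, so these counts show no trait of the family. Over all guides, normalized totals in Taxol vs AP were 8.95e+06, 5.00e+06 and 6.51e+06 in Taxol 1 to 3. They were 3.96e+06 in AP 1 and in AP 3. Medians were close, at 431, 420 and 436 against 425 and 419. Over the 120 guides, log2 values of libraries of the same group correlated at r = 0.58 to 0.69, and those of libraries of different groups at 0.54 to 0.81, as a description over guides that share library and depth. Over all 7855 guides these ranges were 0.61 to 0.75 and 0.55 to 0.80. The spread between replicate libraries was therefore about as large as that between conditions, for this family and for the whole library alike.

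Growth in DMSO against the starting population asks which knockouts alter proliferation in vehicle. Whether this growth began with a withdrawal of Taxol is not stated. Of the 120 PRDM guides 81 were above 0 (67.5%, against 56.8% of all guides), and PRDM9, PRDM8 and PRDM4 passed the unadjusted rank test for enrichment. No PRDM gene passed adjustment over the 779 genes, against 2.18% of all genes (17 of 779) that did. The median log2 fold change (DMSO over AP, from log2(normalized count + 1), a scale that understates changes of rare guides) was 0.35 over the 120 PRDM guides, 0.12 over the other targeting guides and 0.43 over the non-targeting guides. The interquartile range of the PRDM guides, from -0.17 to 0.82, overlapped widely with that of the other targeting guides, from -0.39 to 0.60. The SD between libraries of the PRDM median was 0.10, and that median was 9.52, 9.45 and 9.27 on the log2 scale in DMSO 1 to 3 against 9.33 and 9.30 in AP 1 and AP 3, so that DMSO 3 lay below AP. Without AP 1 the median log2 fold change of the PRDM guides was 0.18.

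Zero on this scale is the deposited normalization, and it decides the sign of small changes. Centering on the non-targeting guides lowered every log2 fold change in DMSO vs AP by about 0.31, and the PRDM guide median became 0.036 with 59 of the 120 guides below 0, compared with 39 of 120 below 0 as deposited. The corresponding shift was -0.17 in Taxol vs DMSO and -0.53 in Taxol vs AP. Scaling to equal totals shifted the values by -0.31, -0.38 and -0.74 in Taxol vs DMSO, DMSO vs AP and Taxol vs AP. Relative to the median of all genes, which these shifts leave aside, the median PRDM gene was 0.12 higher in DMSO vs AP and in Taxol vs AP, and differed by -0.092 in Taxol vs DMSO.

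By single guides (limma), 4 PRDM guides were higher in DMSO than in AP at an unadjusted p below 0.05 and 0 were lower, against 3.21% and 3.65% of all guides. The 4 became 9 without DMSO 1 and 12 without DMSO 3. The shares over all guides in these refits are not given here, so the refit counts show no trait of the family. After adjustment 0 of the 120 were called, as were 0 of all 7855 (0%). The libraries of the 2 groups did not overlap for 21 PRDM guides that were higher and 7 that were lower, against 11.2% and 12% of all guides. For the mean over the 10 guides of a gene, 7 of the 12 PRDM genes were higher without overlap and 0 were lower, against 29.3% and 14.1% of all genes.

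PRDM9, the meiotic histone H3 methyltransferase that places recombination hotspots, had the largest rise of the 12 genes. Its mean over 10 guides was 10.05, 10.10 and 9.89 on the log2 scale in DMSO 1 to 3 and 9.30 and 9.22 in AP 1 and AP 3, so the groups did not overlap. The log2 fold change was 0.76 ± 0.21 (SE, limma on gene means, n = 3 and 2 libraries), with an unadjusted p of 0.00160 and an adjusted p of 0.0624. In robust rank aggregation (RRA, which asks whether a gene's guides crowd one end of the ranking) its exact p for enrichment was 0.00434, adjusted 0.260 (alternatives 0.135 to 0.674). That p was 0.0527 without AP 3 and 0.0656 without DMSO 3, both above 0.05. The adjusted p of the gene mean in limma fell to 0.0309 without DMSO 2. How many of all gene means passed in that refit is not given here. In the fit of all libraries 17 of 779 did. Centered on the non-targeting guides, the log2 fold change of PRDM9 was 0.45, with a gene-mean p of 0.195 in limma, and with equal totals that p was 0.0594.

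All 10 PRDM9 guides had a positive log2 fold change in this comparison. Guide 4785 had 742, 1897 and 655 normalized counts in DMSO 1 to 3 and 231 and 393 in AP 1 and AP 3, a log2 fold change of 1.69 ± 0.67 with an unadjusted limma p of 0.0210 (adjusted 0.727). Guide 4787 had 1966, 1170.4 and 1401 against 713 and 737, in the same order of libraries. Guides 4781 and 4789 likewise stood higher in each DMSO library than in either AP library, with 1342, 1911 and 1259 against 699 and 872 for 4781. For 4789 the values were 2614, 3192 and 2934 against 1087 and 2169. These 4 guides did not overlap between the groups, and the other 6 did, next to 11.2% of all guides that were higher without overlap. PRDM9 was singled out by its rise in the same values, so the 4 are no separate support for it. Guide 4788 had 2045, 1532 and 2885 normalized counts in DMSO against 838 and 1560.3 in AP. Guide 4782 had 943, 2112 and 1211 against 968 and 584. Guide 4790 had 615, 520.1 and 1286 against 665 and 445. In each of these 3, at least 1 DMSO library fell below an AP library. Guide 4786 gave 527, 298 and 274 against 284 and 233. Guide 4784 gave 1111, 234 and 339 against 681 and 184. Guide 4783 gave 514, 1553 and 404 against 725 and 568. The last 3 had the weakest ratios together with 4790, with log2 fold changes of 0.45, 0.33, 0.10 and 0.45.

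PRDM7, the close primate paralog of PRDM9, had a log2 fold change of 0.19 ± 0.21 with guides from -1.18 to 1.54, and it did not pass either test. Guide 4762 was its highest, with 729.7, 1649 and 471 normalized counts in DMSO 1 to 3 and 290.0 and 279 in AP 1 and AP 3 (log2 fold change 1.54 ± 0.67, limma adjusted p = 0.727, unadjusted 0.0343). Whether guides to one of this pair also match the other was not tested, since guide sequences were not used here.

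PRDM8, a repressor of neuronal and retinal development, rose nearly as far but unevenly. Its gene mean was 10.04, 11.05 and 9.65 in DMSO 1 to 3 and 9.48 and 9.55 in AP 1 and AP 3, without overlap, and DMSO 2 stood well above the other DMSO libraries. The log2 fold change was 0.73 ± 0.30, with an exact RRA p of 0.00781 (adjusted 0.344, alternatives 0.303 to 1) and a gene-mean p of 0.0244 (adjusted 0.188). Without DMSO 2 the log2 fold change was 0.33 with an exact p of 0.314. The p also rose above 0.05 without DMSO 1 (0.128), without AP 3 (0.158), with the replicate number as a block, which leaves DMSO 2 without a partner (0.206), and when RRA used the highest 10% of ranks in place of 25% (0.315). The gene-mean p was 0.0665 without AP 1 and 0.0795 without DMSO 2 in limma, 0.0678 with the block, 0.243 after centering on the non-targeting guides and 0.139 with equal totals.

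The counts show how far 1 library carried PRDM8. Guide 4777 had 732, 3193 and 772 normalized counts in DMSO 1 to 3 and 321 and 595 in AP 1 and AP 3. Guide 4773 had 162, 1596 and 398 against 391 and 152. Guide 4771 had 844, 3119.7 and 569 against 981 and 677. In all 3, DMSO 2 was the highest library by a wide margin. Guide 4774 had 608, 2612 and 1175 against 819 and 722. Guide 4772 had 1352, 2555 and 618 against 587 and 953. Guide 4780 had 1142, 2329 and 1769 against 1594 and 1804, the only PRDM8 guide with a log2 fold change below 0 (-0.017). DMSO 2 was again highest in each. Guide 4779, with 2423, 3497 and 2819.8 against 1879.6 and 1560.3, and guide 4777 were the only PRDM8 guides whose groups did not overlap. Guide 4776 had 2143, 2198 and 567 against 531 and 918. Guide 4778 had 1639.9, 1547 and 452 against 401 and 593. Guide 4775 had 2084, 632 and 678 against 914 and 857. In the last 2 guides DMSO 1, not DMSO 2, was the highest library.

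PRDM4, a zinc finger protein that binds PRMT5, had a small change that rested on single guides. Its gene mean was 9.93, 9.91 and 9.77 in DMSO 1 to 3 and 9.58 and 9.61 in AP 1 and AP 3, and the log2 fold change was 0.28 ± 0.20. The exact RRA p for enrichment was 0.0288 (adjusted 0.467, alternatives 0.369 to 0.857), while the gene-mean p in limma was 0.194. The RRA p was 0.0737 without AP 1, 0.0694 without AP 3 and 0.104 without DMSO 1. The mean changed sign, to -0.033 with centering on the non-targeting guides and to -0.11 with equal totals. Guide 4733 alone had 2362, 2483 and 1297 normalized counts in DMSO 1 to 3 and 242 and 506 in AP 1 and AP 3, the largest log2 fold change of the 120 guides here (2.49 ± 0.62, limma adjusted p = 0.695, unadjusted 0.000871). The other 9 PRDM4 guides ranged from -0.72 (4740) to 1.02 (4731).

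The PRDM4 guides split in direction. Guide 4731 had 1875, 4249.7 and 2438 normalized counts in DMSO 1 to 3 and 1017 and 1722 in AP 1 and AP 3, and guide 4734 had 4236, 4231 and 2091 against 2049 and 1879. Together with 4733, these were the guides of PRDM4 that stood higher in each DMSO library than in either AP library. Guide 4738 went the other way, with 1520.3, 776 and 938 against 1879.6 and 1531. Guide 4740 did so too, with 289, 539 and 502 against 547 and 906. Both were lower in every DMSO library than in AP. The remaining 5 guides overlapped. Guide 4736 had 1319.9, 665 and 1109.5 against 969.9 and 533. Guide 4739 had 1170.4, 711 and 1014 against 914 and 857. Guide 4732 had 1004, 874 and 1049 against 791 and 1065. Their log2 fold changes were 0.46, 0.094 and 0.084. Guide 4735 was rare throughout, with 224, 70.6 and 147 against 289 and 95.0. Guide 4737 had 266, 1227 and 452 against 628 and 789.6, and both of these were below 0 on the log2 fold change scale (-0.32 and -0.41).

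Of the remaining genes, none passed an unadjusted test in this comparison. PRDM14, a regulator of germ cell and pluripotent identity, had a log2 fold change of 0.45 ± 0.25 with an exact RRA p of 0.0537, and its AP libraries differed, at 8.57 and 9.45. Without AP 3 its log2 fold change was 0.88 with an exact p of 0.000513 (adjusted 0.112, with alternatives up to 1), and without AP 1 it was 0.013. Its guide 4705 had 1244, 1959 and 1701 normalized counts in DMSO 1 to 3 and 585 and 766 in AP 1 and AP 3 (log2 fold change 1.26 ± 0.58, limma adjusted p = 0.727, unadjusted 0.0442). Log2 fold changes were 0.40 for PRDM13 (neuronal fate), 0.32 for PRDM6 (smooth muscle), 0.25 for PRDM11 and 0.18 for PRDM16 (brown fat). They were 0.11 for PRDM2 (a histone H3 methyltransferase and candidate tumor suppressor), -0.084 for PRDM12 (pain-sensing neurons) and -0.10 for PRDM1, the repressor that drives plasma cell differentiation. Of these 7, PRDM13, PRDM11 and PRDM16 had DMSO libraries that all exceeded both AP libraries. Across the 12 genes, RRA at an unadjusted p below 0.05 gave 3 enriched and 0 depleted, against 8.09% and 11.8% of all genes. Limma on gene means gave 2 higher (PRDM9 and PRDM8) and 0 lower, against 12.5% and 8.73%. Without AP 1 only PRDM9 remained of the 2 (limma adjusted p = 0.889, unadjusted 0.0286). The number enriched by RRA was 1 without AP 3 (PRDM14) and 1 without DMSO 1 (PRDM9).

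Taxol against DMSO asks which knockouts change survival in the drug to which T1-160 cells are resistant. Of the 120 PRDM guides, 73 were lower in Taxol and 47 higher (60.8% lower, against 47.8% of all guides), and PRDM4 passed the unadjusted rank test for depletion. No PRDM gene passed adjustment, against 0.385% of all genes (3 of 779). The median log2 fold change was -0.099 over the PRDM guides, 0.040 over the other targeting guides and 0.11 over the non-targeting guides. The libraries' PRDM medians, 9.03, 8.94 and 8.88 in Taxol 1 to 3 and 9.095, 8.93 and 8.84 in DMSO 1 to 3, overlapped and had an SD of 0.10 between libraries. With each library left out in turn the PRDM median stayed below 0, between -0.20 and -0.063.

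Single guides (limma) gave 3 lower and 1 higher at an unadjusted p below 0.05, against 1.55% and 2.01% of all guides, and 0 of 120 after adjustment (0% of all guides). There were 6 lower without DMSO 2 and 5 without DMSO 3. The 1 higher became 0 without DMSO 1 and 2 without any one of the Taxol libraries. The shares over all guides in these refits are not given here, so the refit counts show no trait of the family. The libraries did not overlap for 5 guides lower and 2 higher, against 4.26% and 4.76% of all guides. By gene, 2 were lower without overlap (PRDM6 and PRDM9) and 1 was higher (PRDM2), against 4.49% and 6.29%. By RRA 1 gene was depleted and 0 enriched, against 4.75% and 6.55% of all genes at the same unadjusted threshold. The number depleted was 2 without DMSO 2 (PRDM6 and PRDM14) and 0 without DMSO 3, with the share over all genes in these refits not given here. On gene means 0 were lower and 0 higher in limma, against 1.54% and 4.62%.

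PRDM4 passed the rank test for depletion although its mean lay near 0. Its gene mean was 9.54, 9.64 and 9.17 in Taxol 1 to 3 and 9.51, 9.40 and 9.34 in DMSO 1 to 3, a log2 fold change of 0.036 ± 0.25 with an exact RRA p of 0.0335 (adjusted 0.917, alternatives 0.750 to 0.970) and a gene-mean p of 0.887. The low p came with 1 extreme guide. Guide 4733 had 354, 448 and 282 normalized counts in Taxol 1 to 3 and 1764, 1735 and 964 in DMSO 1 to 3, a log2 fold change of -2.01 ± 0.61 (limma adjusted p = 0.967, unadjusted 0.00576). Guides 4739, 4734 and 4740 had 1.05, 1.11 and 1.19, all with overlapping libraries. PRDM4 had the widest spread of the 12 genes over its guides, with an SD of 0.98 log2 units. With the replicate number as a block the exact p of PRDM4 was 0.0519, above 0.05. It was 0.236 without DMSO 1, 0.151 without DMSO 2, and 0.110 without Taxol 3 and also without DMSO 3, and 0.0563 with equal totals. The mean turned negative without DMSO 3 (-0.0022), without Taxol 1 (-0.0074), without Taxol 2 (-0.058), with centering on the non-targeting guides (-0.14) and with equal totals (-0.28).

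PRDM8, PRDM6 and PRDM9 had the lowest means of the 12 genes. None passed a test in the unblocked fit of all libraries as deposited. With equal totals their gene-mean p in limma was 0.00672, 0.0300 and 0.0178 (adjusted 0.374, 0.576 and 0.487), and PRDM6 had an exact RRA p of 0.0307. That scaling put 659 of all 779 genes below 0. Centered on the non-targeting guides, the gene-mean p was 0.0751, 0.0363 and 0.104, in the same order of genes. PRDM8 had 9.58, 9.45 and 9.13 in Taxol 1 to 3 and 9.62, 10.54 and 9.22 in DMSO 1 to 3, a log2 fold change of -0.41 ± 0.29 with an exact RRA p of 0.0909. With the replicate number as a block that p was 0.0335, and without DMSO 1 it was 0.00705. Its gene-mean p in limma was 0.161, and 0.0372 without DMSO 3. Without DMSO 2, where PRDM8 was highest, the log2 fold change was -0.036. Guide 4773 of PRDM8 had 73.2, 111 and 59.4 normalized counts in Taxol 1 to 3 and 121, 1115 and 296 in DMSO 1 to 3, the lowest log2 fold change of the 120 guides (-2.11 ± 0.72, limma adjusted p = 0.967, unadjusted 0.0115). The groups did not overlap for this guide, but DMSO 1 lay close to Taxol 2. PRDM6 had 8.41, 8.32 and 8.43 in Taxol 1 to 3 and 9.07, 8.69 and 8.61 in DMSO 1 to 3, without overlap. Its log2 fold change was -0.40 ± 0.22 with a gene-mean p of 0.0757 in limma and an exact RRA p of 0.166, which was 0.00789 without DMSO 2 and 0.0272 without Taxol 3. PRDM9 had 9.16, 9.11 and 9.41 in Taxol 1 to 3 and 9.63, 9.58 and 9.46 in DMSO 1 to 3. Its log2 fold change was -0.33 ± 0.25, with an exact RRA p of 0.202 and a gene-mean p of 0.182. All 10 PRDM9 guides were below 0, from -0.71 (4785) to -0.032 (4790), and each of the 10 had overlapping libraries. Their SD over guides was 0.30 log2 units, the smallest of the 12 genes, next to a median of 0.64 over all genes.

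The other 8 genes had log2 fold changes between -0.22 and 0.25 in Taxol vs DMSO. These were -0.22 for PRDM13, -0.15 for PRDM14, -0.088 for PRDM7, -0.033 for PRDM1 and -0.0074 for PRDM11. On the positive side they were 0.12 for PRDM12, 0.22 for PRDM2 and 0.25 for PRDM16. PRDM2 was higher in each Taxol library than in any DMSO library, but by an amount within its SE of 0.24. Its exact RRA p for enrichment was 0.242, and 0.0335 without DMSO 2. PRDM14 had an exact p for depletion of 0.135, and 0.0335 without DMSO 2. Guide 4709 of PRDM14 had 59.8, 76.9 and 63.8 normalized counts in Taxol 1 to 3 and 402, 86.9 and 220.3 in DMSO 1 to 3 (log2 fold change -1.56 ± 0.59, limma adjusted p = 0.967, unadjusted 0.0195). Thus the 3 guides lower in Taxol at an unadjusted p below 0.05, 4773, 4733 and 4709, belonged to different genes. The 1 higher guide, 4720 of PRDM16, had 195, 154 and 548 against 64.2, 86.9 and 163 and overlapped.

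Taxol culture against the starting population combines the effect of growth and of the drug. Of the PRDM guides 73 were above the AP level as deposited and 47 below (60.8% above, near the 57.8% of all guides), and no PRDM gene passed a rank test even without adjustment. After adjustment 6.03% of all genes (47 of 779) were called and 0 of the 12. The median log2 fold change was 0.20 over the PRDM guides, 0.14 over the other targeting guides and 0.68 over the non-targeting guides, so here the PRDM guides lay near the other targeting guides. Without Taxol 3 the PRDM median was 0.093. Centering on the non-targeting guides put all 12 PRDM genes below 0, along with 632 of all 779 genes. Single guides gave 2 higher and 0 lower at an unadjusted p below 0.05 in limma, against 2.24% and 3.9% of all guides, and 0 of 120 after adjustment (0% of all guides). The 2 higher guides became 6 without Taxol 1 and 9 without Taxol 3. The shares over all guides in these refits are not given here, so the refit counts show no trait of the family. The libraries did not overlap for 16 guides higher and 8 lower, against 12.4% and 13.6%. Of the genes, 5 were higher without overlap and 0 lower, against 32.3% and 14.5%, and RRA gave 0 enriched and 0 depleted against 8.34% and 13.1%. Limma on gene means gave 1 higher (PRDM9) and 0 lower at an unadjusted p below 0.05, against 16.9% and 6.29%. The 1 higher became 2 without Taxol 1 (with PRDM2) and without Taxol 2 (with PRDM16), with the share over all genes in these refits not given here.

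The largest changes were those of PRDM16 and PRDM9. PRDM16, which directs brown fat identity, had a gene mean of 9.76, 9.17 and 9.50 in Taxol 1 to 3 and 9.0 and 8.99 in AP 1 and AP 3. Its log2 fold change was 0.48 ± 0.24, with an exact RRA p of 0.0507 (adjusted 0.594, alternatives 0.459 to 0.985). The groups did not overlap, and Taxol 2 lay closest to AP. PRDM9 had 9.27, 9.22 and 9.53 in Taxol 1 to 3 and 8.91 and 8.83 in AP 1 and AP 3, a log2 fold change of 0.47 ± 0.21 with a gene-mean p of 0.0458 in limma (adjusted 0.208). That p was 0.183 without AP 1, 0.256 without AP 3 and 0.0781 without Taxol 3. The mean became -0.057 after centering on the non-targeting guides and -0.27 with equal totals. Of its 10 guides, 9 were above 0 as deposited. The other genes had log2 fold changes of 0.38 for PRDM2, 0.37 for PRDM8, 0.36 for PRDM4, 0.35 for PRDM14 and 0.29 for PRDM11. They were 0.23 for PRDM13, 0.15 for PRDM7, 0.079 for PRDM12, -0.040 for PRDM6 and -0.085 for PRDM1. Without AP 3, PRDM14 had 0.78 with an exact RRA p of 0.00641, and without AP 1 it had -0.093. Guide 4722 of PRDM2 had 1297, 764 and 2130.1 normalized counts in Taxol 1 to 3 and 239 and 587 in AP 1 and AP 3 (log2 fold change 1.77 ± 0.68, limma adjusted p = 0.737, unadjusted 0.0291). Guide 4778 of PRDM8 had 1502, 1834 and 599 against 306 and 454 (log2 fold change 1.66 ± 0.66, limma adjusted p = 0.737, unadjusted 0.0329), and both guides were free of overlap.

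The comparisons share libraries, so their values for a gene are not independent. PRDM9 was at 0.76 in DMSO vs AP, -0.33 in Taxol vs DMSO and 0.47 in Taxol vs AP. For PRDM8 the values were 0.73, -0.41 and 0.37, in the same order, with DMSO 2 the high library. Guide 4733 of PRDM4 had 2.49, -2.01 and 0.52, again in that order. By these values the mean over the Taxol libraries lay between those of AP and DMSO. High DMSO libraries enter DMSO vs AP as a rise and Taxol vs DMSO as a fall by construction.

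The genes were also grouped by what the proteins are known to do, as a description by medians. In the unblocked fits of all libraries none of the 12 had an adjusted call, so no group could hold one. The 6 members with reported methyltransferase activity (PRDM2, PRDM6, PRDM7, PRDM8, PRDM9 and PRDM16) had a median log2 fold change of 0.26 in DMSO vs AP, -0.21 in Taxol vs DMSO and 0.37 in Taxol vs AP, next to 0.15, 0.031 and 0.20 over all 779 genes. The 2 described as tumor suppressors (PRDM1 and PRDM2) had a median of 0.0052, 0.095 and 0.15, with neither past an unadjusted test. The 7 known from lineage and development (PRDM1, PRDM6, PRDM8, PRDM12, PRDM13, PRDM14 and PRDM16) had 0.32, -0.15 and 0.23, with PRDM8 alone past one in DMSO vs AP. The 12 genes together had 0.26, -0.061 and 0.32.

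Among 16 measured partners of PRDM proteins, the median was 0.14 in DMSO vs AP, -0.060 in Taxol vs DMSO and 0.22 in Taxol vs AP. PRMT5 was depleted in culture, with a log2 fold change of -1.17 ± 0.23 in DMSO vs AP (exact RRA, adjusted p = 0.000284) and -0.71 ± 0.26 in Taxol vs AP (adjusted p = 0.0111). EED, a polycomb subunit, was depleted in Taxol vs AP (-0.46 ± 0.20, exact RRA, adjusted p = 0.0326), and no partner was called in Taxol vs DMSO. Of 32 other SET-domain methyltransferases, RRA called SETD2 in Taxol vs AP (-0.56 ± 0.22, exact, adjusted p = 0.0162). RRA called 0 of the 32 in DMSO vs AP, where limma on gene means called KMT2D (1.00 ± 0.22, adjusted p = 0.0271). By that limma test 17 of all 779 genes were called in DMSO vs AP. The medians of the 32 were 0.18 in DMSO vs AP, -0.024 in Taxol vs DMSO and 0.34 in Taxol vs AP. For scale, all 13 ribosomal protein genes, which proliferating cells need, were below 0 in DMSO vs AP (median -0.58, 2 called by RRA) and in Taxol vs AP (median -0.42, 4 called), whereas no PRDM gene was called as depleted in any comparison.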

How the data were processed

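The authors counted sgRNAs amplified from genomic DNA and processed them with MAGeCK 0.5.8 per the submitters' processing notes; trimming and mapping options are not stated in the sources used here. The deposited tables, 1 for each of 3 comparisons, hold normalized counts with the 3 values of a group joined in a cell, and each table was scaled separately. Their fold changes, scores and p-values are the authors' comparisons and were not used, nor were the gene tables, which hold only such values. The order of values in a cell was taken as replicate number, an assumption; the second AP value has no label here and was left out (2 value columns). An entry made from the column header was removed from each of the 3 tables.

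Values were tested as log2(normalized count + 1) with limma 3.58.1 (lmFit, eBayes with trend, two-sided) in R 4.3.3, per guide over 7855 guides and per gene on the mean over guides over 779 genes, with Benjamini-Hochberg adjustment at 0.05. Robust rank aggregation, the gene test the study names, was run on limma's moderated statistic with the lowest or highest 25% of ranks and exact one-sided p-values. The unblocked limma fits and the rank test were tested on simulated data. Loading, read recovery and the alternative settings were not. Reads were recovered where values were whole within 0.1 read (98.98% to 99.99% of a library's values), and depth sets the precision at 260.5 reads per guide in the shallowest library and 1499 in the deepest. Same-numbered Taxol and DMSO libraries deviated together (r = 0.17, 0.13 and 0.21 over guides). The main fits nevertheless left this pairing out. A fit with the replicate number as a block was run as an alternative, and its results are named as such. The ribosomal list leaves out the RPS6K kinases, whose symbols match its pattern.

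The guides, gene lists and tests were chosen with earlier results of these data known. All 12 PRDM genes are named; 1 further gene that fits the symbol rule, with 10 guides, is not reported here. Library values are given for genes with an unadjusted rank p under 0.05 and the 2 with the largest change per comparison. The same holds for guides with a limma p under 0.05 and no overlap (at most 8 per comparison), and for the guides of PRDM9, PRDM8 and PRDM4. Other guides given with values, such as 4704, 4718, 4720 and 4769, were chosen after their values were seen. MECOM and ZNF408, family members under other symbols, and PRDM10 and PRDM15 were not analysed here.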

Additional observations from a re-analysis of the deposited data

How the results depend on the processing

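Of 516 gene log2 fold changes under alternative settings, 429 kept sign and side of the unadjusted RRA threshold, 14 lost and 15 gained it, and 58 turned sign (37 of them with another scaling, which shifts all guides alike). No PRDM gene had an adjusted RRA p below 0.112 in any of them. Of 388 counts and medians, 321 stayed within 1.5 times the reported count or 1 SD of the reported median. The rest follow, and the cause was not tested. The share of all guides or genes that passed in each setting is not given here, so the counts show no trait of the family. Rescaling moved the whole library. In Taxol vs AP, 632 of all 779 genes lay below 0 after centering on the non-targeting guides, and 733 with equal totals. 

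With centering on the non-targeting guides, Taxol vs DMSO gave guides higher 0, guide median -0.27 and gene means lower 1, and turned signs to PRDM12 -0.054 and PRDM4 -0.14. With centering on the non-targeting guides, DMSO vs AP gave guides lower 2, guides higher 1, guide median 0.036 and gene means higher 0, and turned signs to PRDM11 -0.060, PRDM16 -0.12, PRDM2 -0.20, PRDM4 -0.033 and PRDM7 -0.12. With centering on the non-targeting guides, Taxol vs AP gave guides lower 6, guides higher 0, guide median -0.32, gene means lower 2 and gene means higher 0, and turned signs to PRDM11 -0.24, PRDM12 -0.45, PRDM13 -0.29, PRDM14 -0.18, PRDM16 -0.048, PRDM2 -0.15, PRDM4 -0.17, PRDM7 -0.37, PRDM8 -0.16 and PRDM9 -0.057. With scaling to equal totals, Taxol vs DMSO gave guides higher 0, guide median -0.41 and gene means lower 3, and turned signs to PRDM12 -0.19, PRDM16 -0.065, PRDM2 -0.089 and PRDM4 -0.28. With scaling to equal totals, DMSO vs AP gave guides lower 3, guides higher 1, guide median -0.038, gene means lower 1 and gene means higher 0, and turned signs to PRDM11 -0.13, PRDM16 -0.20, PRDM2 -0.27, PRDM4 -0.11, PRDM6 -0.064 and PRDM7 -0.19. With scaling to equal totals, Taxol vs AP gave guides lower 4, guides higher 0, guide median -0.53, gene means lower 2 and gene means higher 0, and turned signs to PRDM11 -0.45, PRDM12 -0.66, PRDM13 -0.51, PRDM14 -0.39, PRDM16 -0.26, PRDM2 -0.36, PRDM4 -0.38, PRDM7 -0.59, PRDM8 -0.37 and PRDM9 -0.27. With the replicate number as a block, DMSO vs AP gave called guides 1, guides lower 2 and called gene means 1. With the replicate number as a block, Taxol vs AP gave guides higher 5. With guides below a mean of 50 left out, Taxol vs AP gave genes enriched 1, and turned signs to PRDM6 0.069. Without a variance trend, Taxol vs DMSO gave guides higher 0. Without a variance trend, Taxol vs AP gave genes enriched 1. With 10% of ranks in RRA, Taxol vs AP gave genes enriched 1. With limma voom on recovered reads (chosen after seeing the data), Taxol vs DMSO turned signs to PRDM11 0.040. With the median over guides, Taxol vs DMSO turned signs to PRDM7 0.064. With the median over guides, Taxol vs AP turned signs to PRDM6 0.063 and PRDM7 -0.15.

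With 1 library left out in turn, Taxol vs DMSO gave guides lower 2 to 6, guides higher 0 to 2, genes depleted 0 to 2, genes enriched 0 to 1 and gene means lower 0 to 1. Log2 fold changes that turned sign were PRDM1 -0.13 to 0.10, PRDM11 -0.21 to 0.17, PRDM12 -0.083 to 0.23, PRDM4 -0.058 to 0.17 and PRDM7 -0.17 to 0.041. With 1 library left out in turn, DMSO vs AP gave guides lower 0 to 2, guides higher 1 to 12, guide median 0.18 to 0.28, genes enriched 1 to 2, called gene means 0 to 1 and gene means higher 1 to 3. Log2 fold changes that turned sign were PRDM12 -0.24 to 0.076. With 1 library left out in turn, Taxol vs AP gave guides lower 0 to 2, guides higher 0 to 9, guide median 0.093 to 0.25, genes enriched 0 to 1 and gene means higher 0 to 2. Log2 fold changes that turned sign were PRDM1 -0.18 to 0.050, PRDM12 -0.12 to 0.24, PRDM14 -0.093 to 0.78 and PRDM6 -0.26 to 0.18.

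In the blocked fit of DMSO vs AP, DMSO 2 has no partner and carries no weight. Guide 4733 (adjusted p = 0.0347) and the gene mean of PRDM9 (0.00758) passed adjustment in limma there, with 19 guides called in all. How many of all gene means were called in that blocked fit is not given here. In that fit PRDM8 lost its unadjusted calls (exact RRA p = 0.206), and in Taxol vs AP the block raised the gene-mean p of PRDM9 in limma to 0.0780. Same-numbered libraries did not deviate together in DMSO vs AP (r = 0.036 and 0.010) or in Taxol vs AP (-0.017 and 0.014), so these blocks rest on numbers alone. The paired fit of Taxol vs DMSO changed no call beyond those given for PRDM4 and PRDM8. Adding 10 in place of 1 before the log changed no count or median past these limits. The planned count model was not run because the libraries are joined in cells; limma voom on recovered reads was added after seeing the data. Taxol 2 and Taxol 3 were the shallowest libraries.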

Other observations

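The least abundant PRDM guide was 4758 against PRDM6, the lowest of the 120 in every library but AP 1 and DMSO 1. It had 92.1, 19.3 and 17.4 normalized counts in DMSO 1 to 3 and 97.3 and 27.3 in AP 1 and AP 3. In the Taxol and DMSO table it had 11.3, 36.2 and 13.2 in Taxol 1 to 3. Guide 4712 of PRDM16 had 7685, 769 and 1716 in Taxol 1 to 3 against 567 and 883 in AP 1 and AP 3, with Taxol 1 the highest, Taxol 3 above both AP libraries and Taxol 2 between them. Guide 4731 of PRDM4 was also highest in Taxol 1, with 7009, 993 and 827 in Taxol 1 to 3 and 1400.4, 2970.0 and 1812 in DMSO 1 to 3.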
